A study of Rattus norvegicus with 64 samples.

Results

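The transcripts described here were 63 of the 31715 listed per library, chosen because their level was higher at 10 h than at 5 h in both the liver and the kidney of vehicle rats. On the scale of log2(TPM + 0.5), where TPM is the length-corrected share of a transcript in its library, the mean of the 8 libraries at 10 h had to exceed that of the 8 libraries at 5 h by at least 0.25 in each organ. In at least 56 of the 64 pairs of one 10 h and one 5 h library the 10 h value had to be higher. A member also needed a mean vehicle level of at least 2 TPM in each organ, with the organ means within 16-fold. Transcripts whose bromobenzene mean differed from the vehicle mean by 0.4 or more in liver at either time, or by 0.3 or more in kidney at 10 h, were left out. The level criteria alone were met by 10847 transcripts, and the time and level criteria together by 134, of which 71 were left out as bromobenzene responders. The same rule on counts per mega-count after TMM scaling (TMM is edgeR's correction for library composition) gave 30 members, of which 24 were among the 63.

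The samples were liver and kidney of Sprague Dawley rats given 1 dose of bromobenzene at 0.4 g/kg, or vehicle, named in the series description as 2% saline, and sampled at 5 h or 10 h. Each of the 8 groups (liver or kidney, vehicle or bromobenzene, 5 h or 10 h) had 8 RNA-seq libraries, 64 in all, from 32 rats. The labels give neither sex, age nor hour of day, do not say which liver and kidney library came from one rat, and describe the RNA as taken from cultured cells although the tissue labels name the organs. Time since dosing, time of day and anything else that passes with time therefore cannot be told apart.

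Liver and kidney share many transcripts whose levels move over the day, because both organs hold molecular clocks and both follow feeding and hormones of the blood such as glucocorticoids. Bromobenzene is a classical liver toxicant that cytochrome P450 enzymes turn into reactive epoxides, which use up glutathione, and its metabolites can also injure the kidney. A study of such a toxicant therefore carries vehicle groups at every time, so that a change with time can be told from a change with the toxicant. The deposited tables name transcripts by Ensembl ID alone and do not pair them with genes. The reference table used here matched 0 of them, so the roles of the members are not given, and members are described by level, length and response, with 2 named by ID.

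Estimated counts summed to between 13.8 and 28.3 mega-counts in a liver library, and to between 16.98 and 24.1 in a kidney library. The lowest estimated count of any member in any library was 17 in liver and 60 in kidney. Kidney vehicle replicate 4 at 5 h stood apart in holding 1.81% of its TPM in liver-enriched transcripts, those at least 16-fold higher in liver, against at most 0.489% in any other kidney library. Without it the members' vehicle change in kidney had a median of 0.35 in place of 0.37, and 59 of the 63 still reached 0.25. Kidney bromobenzene replicate 8 at 5 h had the fewest transcripts at 1 TPM or more of its group, 16775. Kidney vehicle replicate 2 at 5 h had the fewest of any kidney library, 16387. In liver, bromobenzene replicate 4 at 5 h and bromobenzene replicate 3 at 10 h had the fewest transcripts at 1 TPM or more of their groups, 12766 and 13201. In vehicle liver the fewest were 13323 in replicate 4 at 5 h and 13240 in replicate 4 at 10 h. Defining markers of liver, kidney and blood cell types could not be looked up without gene names. In whole organs a smaller number of cells of a type and less RNA per cell cannot be told apart.

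The members' rise in vehicle rats was modest and somewhat larger in liver. These are the values that chose them, so they carry no test. In liver the 10 h minus 5 h difference in mean log2(TPM + 0.5) ran from 0.27 to 1.69 with a median of 0.53, against a median of 0.01 over the 10847 transcripts that met the level criteria. In kidney it ran from 0.25 to 1.09 with a median of 0.37, against 0.06 over the same transcripts. In the edgeR fit of counts with TMM scaling, all 63 changes were above 0 in both organs, with medians of 0.55 in liver and 0.30 in kidney. The TPM change was larger in liver for 52 members and larger in kidney for 11. All 64 library pairs had the 10 h value higher for 32 members in liver, for 19 in kidney and for 12 in both organs. Over the 10847 transcripts that met the level criteria, this held for 266 in liver and for 101 in kidney. The count in both organs over those transcripts is not given here. The rule itself set a lower limit on these pairs, so nothing is read from the members' counts. A rise of 1 or more, a doubling of TPM + 0.5, was reached by 9 members in liver and by 1 member in both organs. Across the 63 members the liver and kidney changes had a Pearson r of 0.39 and a Spearman rho of 0.38, a description over transcripts that share the same libraries and were cut by thresholds in both.

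The leave-out removed the steepest of the transcripts that rose in both organs. The 71 left out had a median vehicle change of 1.17 in liver, with a highest value of 3.93, and of 0.52 in kidney, with a highest value of 2.66. A rise of at least 1 in liver was seen in 45 of them, and in both organs in 17. The 63 members are thus the moderate part of the 134. Of the 71, 44 were left out for liver at 5 h, 41 for liver at 10 h and 25 for kidney at 10 h, with some left out on more than one count.

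Rising and falling in both organs were not equally common on this scale. The vehicle change was above 0 for 7658 of the 10847 transcripts meeting the level criteria in kidney, and for 5605 in liver. A shift of all transcripts upward favours rising over falling at a fixed limit, and no falling count after TMM scaling is given here. The mirrored time and level criteria were met by 37 falling transcripts, and the mirrored whole rule by 12. In liver alone 716 of the 10847 met the rising criteria, and in kidney 651. The 134 that met both made up 18.7% of the liver list and 20.6% of the kidney list.

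Several members sat close to a limit of the rule. The smallest liver change inside was 0.27, and the nearest transcript that failed on this criterion alone was at 0.19. In kidney the corresponding values were 0.254 and 0.248, and 58 transcripts failed on the kidney change alone. A count of 56 pairs was inside and one of 55 outside. That step kept out 35 transcripts by the liver pairs alone and 13 by the kidney pairs alone. The lowest mean level inside, in the lower organ, was 2.44 TPM and the nearest outside 1.97 TPM. The nearest sizes of the bromobenzene difference were 0.40 inside and 0.45 outside in liver at 5 h, 0.40 and 0.45 in liver at 10 h, and 0.30 and 0.31 in kidney at 10 h.

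The members were mid-level transcripts in both organs. Their mean vehicle level ran from 2.44 to 191 TPM in liver, with a median of 9.86, and from 2.904 to 341 TPM in kidney, with a median of 20.2. The level was higher in kidney for 53 members and higher in liver for 10, and the median kidney level was 1.77 times the liver level, against 1.67 times over all transcripts meeting the level criteria. The 63 members together held a median of 0.0858% of a library's TPM in vehicle liver at 5 h and 0.134% at 10 h. In vehicle kidney these medians were 0.188% and 0.257%.

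**Figure D1:**
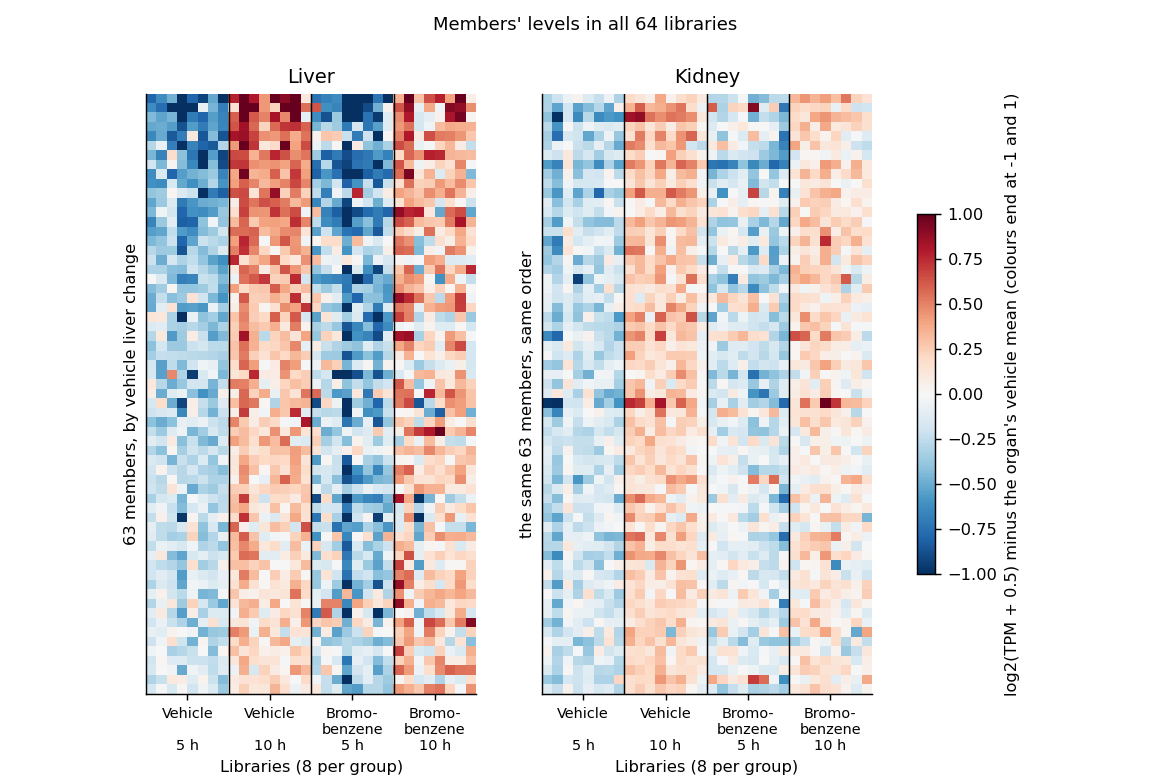
Levels of the 63 members (lines, ordered by vehicle liver change, the same order in both panels) in all 64 libraries (columns, 8 per group), as log2(TPM + 0.5) minus the member's mean over the 16 vehicle libraries of that organ. Vehicle 5 h is mostly blue and vehicle 10 h mostly red, as the rule requires, and the bromobenzene columns change from blue to red in both organs, more weakly in kidney.

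The libraries from bromobenzene rats took no part in the rule's time criteria, but they did take part in the leave-out. For a member the bromobenzene time change equals the vehicle change plus the bromobenzene difference at 10 h minus that at 5 h, and the leave-out bounds both differences in liver and the 10 h one in kidney. The members' counts below are therefore descriptions bounded by the rule, and the main counts are also given for all 134 transcripts, which were chosen without any bromobenzene library.

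In bromobenzene rats most members were again higher at 10 h in each organ. In liver 39 of the 63 rose and none fell at a Benjamini-Hochberg adjusted p under 0.05 (edgeR quasi-likelihood test, 8 libraries per group), where 5.53% of the 17535 transcripts tested rose and 4.9% fell. The fitted log2 change was above 0 for 61 members, with a median of 0.45 and a range from -0.20 to 1.47, and the median over all transcripts tested was -0.01. In kidney 34 of the 63 rose and none fell, where 1.58% of the 20004 tested rose and 1.75% fell. There the change was above 0 for 56 members, with a median of 0.24 and a range from -0.17 to 0.84, and the median over all transcripts tested was 0.00. Under an unadjusted p of 0.05 in edgeR, 49 members passed in liver and 44 in kidney. Over all transcripts tested, 3974 of 17535 passed in liver and 3192 of 20004 in kidney, in either direction.

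Both organs called the rise for 27 members, where 0.704% of the 16894 transcripts tested in both were called higher in both. The 64 libraries came from 32 rats, so the calls in the organs are not taken as independent. Liver alone called 12, kidney alone called 7, and 17 were called in neither. A call in one organ and none in the other does not show that the organs differed. When the only libraries in the fit were the 16 of the bromobenzene groups of an organ, 30 members rose in liver, 26 in kidney and 16 in both. Over all transcripts tested in that fit, 548 of 16598 rose in liver and 191 of 19074 in kidney, against 969 and 317 in the main fit.

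Among all 134 transcripts chosen on vehicle libraries alone, 133 were tested in liver, and 74 of these rose after bromobenzene, with 116 of the changes above 0. In kidney all 134 were tested, 59 rose, and 114 of the changes were above 0. Both organs called 47. Of the 71 left out, 70 were tested in liver, where 35 rose and 2 fell, and 71 in kidney, where 25 rose and 1 fell. The share called higher in kidney was 35.2% for the left-out transcripts and 53.97% for the members. The leave-out parted these lists by bromobenzene differences that enter this same change, so nothing is read from the 2 shares.

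The time criteria of the rule were also applied as written to the bromobenzene libraries. In liver 42 members met them, where 10.4% of the 10847 transcripts with sufficient level did. In kidney 24 members met them, where 1.72% did, and in both organs 17 members met them, where 0.774% did. Of the 134 transcripts chosen without bromobenzene libraries, 80 met them in liver, 51 in kidney and 40 in both. The 134 transcripts found in vehicle rats and the 84 found in bromobenzene rats had 40 in common, which is 29.9% of the first list and 47.6% of the second.

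**Figure D2:**
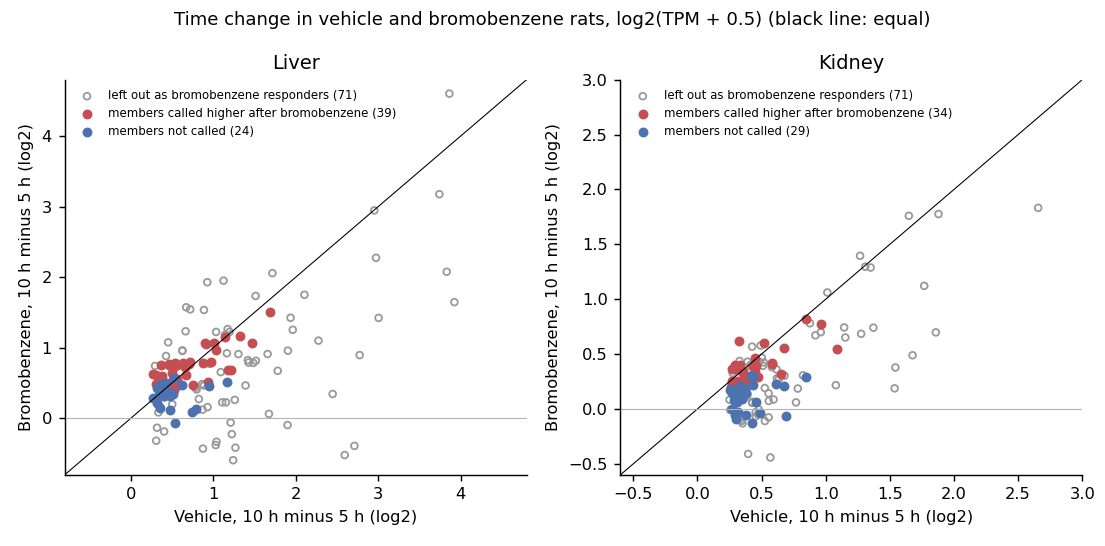
Change from 5 h to 10 h in mean log2(TPM + 0.5), vehicle rats on the horizontal axis and bromobenzene rats on the vertical axis, for the 63 members (filled) and the 71 transcripts left out (open), with the line of equal change in black. Red members (39 in liver, 34 in kidney) were called higher at 10 h in bromobenzene rats. Most members lie above 0 in both panels, and most kidney members lie below the line. Most transcripts meeting the level criteria also had the smaller kidney change after bromobenzene.

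The calls in bromobenzene liver can be set beside the size of the vehicle change in liver. Of the 9 members with a vehicle liver change of at least 1, 8 were called in bromobenzene liver. Of the 26 with a change from 0.5 to 1, 19 were called, and of the 28 with a smaller change, 12. Across the 63 members the vehicle and bromobenzene changes on the log2(TPM + 0.5) scale had a Pearson r of 0.66 in liver and of 0.50 in kidney. The bound set by the leave-out ties these quantities to each other, so the calls by size and the r values describe the list and carry no test. The share called among all transcripts of like vehicle change is not given here. The 17 members called in neither organ had median vehicle changes of 0.41 in liver and 0.33 in kidney.

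On the same scale the bromobenzene change in kidney was smaller than the vehicle change for 56 of the 63 members, with a median difference of -0.14, beside a median of -0.07 over all transcripts meeting the level criteria. A larger kidney change after bromobenzene was seen in 7 members and in 3164 of the 10847 transcripts. In liver the median difference was -0.02 beside 0.11 over those transcripts, with 29 members and 7193 of the 10847 at a larger change after bromobenzene. The vehicle libraries are those that chose the members, so no test was made of this difference.

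The first transcript named by ID, ENSRNOT00000081845.1, is 4610 bases long and is the member with the largest bromobenzene change when the smaller of the organ values is taken. In vehicle liver its lowest, median and highest levels were 7.73, 12.6 and 17.6 TPM at 5 h and 22.4, 23.9 and 28.7 TPM at 10 h. In bromobenzene liver they were 7.33, 10.1 and 14.1 TPM at 5 h and 16.7, 19.7 and 27.01 TPM at 10 h. Every 10 h library was above every 5 h library in both treatments.

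In vehicle kidney ENSRNOT00000081845.1 had lowest, median and highest levels of 18.8, 21.3 and 33.3 TPM at 5 h and of 35.5, 41.9 and 45.5 TPM at 10 h. In bromobenzene kidney they were 17.3, 18.8 and 22.7 TPM at 5 h and 28.9, 32.4 and 40.6 TPM at 10 h. Again no 5 h library reached the lowest 10 h library, although vehicle replicate 3 at 5 h, at 33.3 TPM, lay above the other 7 of its group. The fitted log2 change after bromobenzene was 0.88 (SE 0.13, edgeR adjusted p = 2.52e-05) in liver and 0.84 (SE 0.09, edgeR adjusted p = 2.16e-07) in kidney. The kidney and liver changes differed by -0.04 (edgeR adjusted p = 0.95).

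The second, ENSRNOT00000020476.7, is 5794 bases long and had the largest vehicle change of all members in liver, 1.69, but only 0.32 in kidney. In vehicle liver its lowest, median and highest levels were 4.88, 7.49 and 9.43 TPM at 5 h and 14.4, 24.5 and 39.6 TPM at 10 h. In bromobenzene liver they were 4.61, 7.14 and 8.49 TPM at 5 h and 14.1, 19.496 and 27.53 TPM at 10 h. The liver groups of different times did not overlap, and the spread at 10 h was wide, with a standard deviation of 7.76 TPM over the 8 vehicle libraries.

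In vehicle kidney ENSRNOT00000020476.7 had lowest, median and highest levels of 15.7, 17.5 and 20.2 TPM at 5 h and of 20.3, 21.9 and 25.9 TPM at 10 h. In bromobenzene kidney they were 13.996, 16.2 and 19.52 TPM at 5 h and 21.9, 25.1 and 28.6 TPM at 10 h. The highest 5 h library and the lowest 10 h library nearly touched in vehicle rats and were farther apart in bromobenzene rats. Its fitted log2 change after bromobenzene was 1.47 (SE 0.17, edgeR adjusted p = 4.32e-07) in liver and 0.64 (SE 0.07, edgeR adjusted p = 3.15e-07) in kidney. The kidney change was smaller than the liver change, with a log2 difference of -0.84 (SE 0.17; adjusted p = 0.00268 in edgeR).

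**Figure D3:**
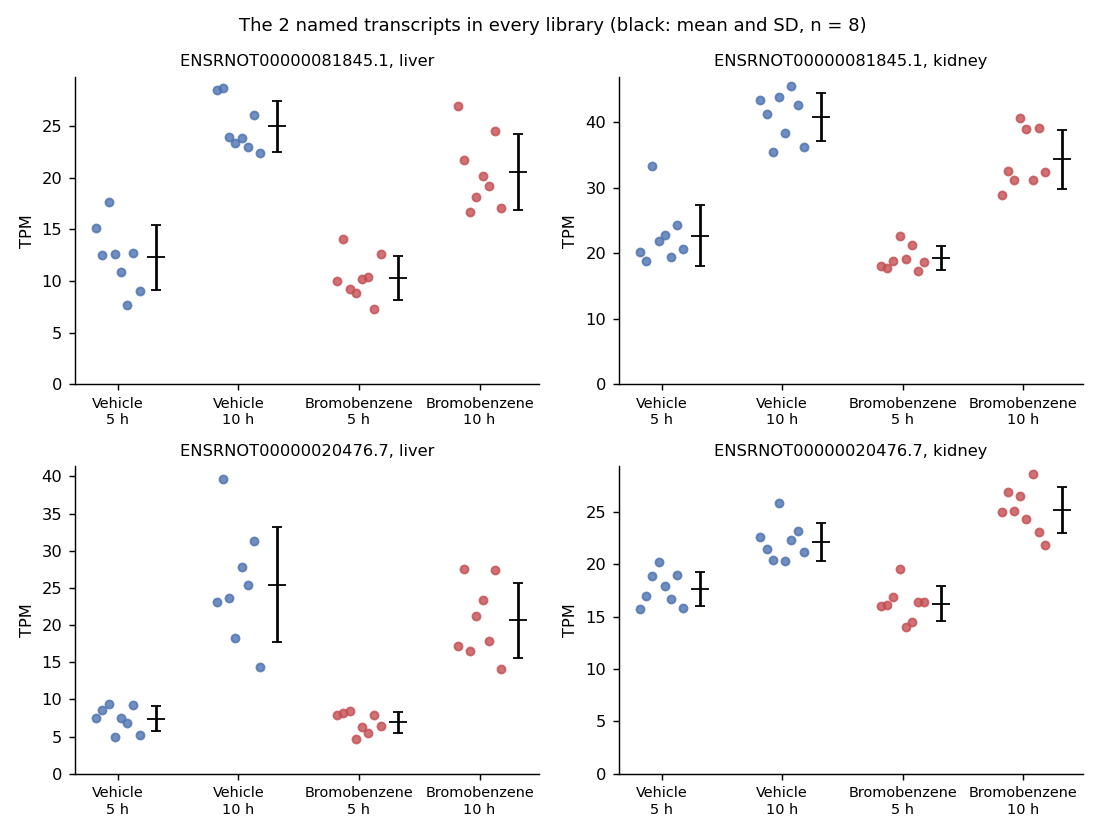
TPM of the 2 named transcripts in every library by group, vehicle in blue and bromobenzene in red, with the mean and standard deviation of 8 libraries in black and the vertical axis starting at 0. In liver and kidney all 10 h libraries lie above all 5 h libraries of the same treatment, and ENSRNOT00000020476.7 rises far more in liver than in kidney. Both transcripts were picked by their bromobenzene change among members called in both organs.

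The member with the highest kidney level shows a small change in an abundant transcript. Its vehicle kidney levels were 277, 305 and 362 TPM (lowest, median, highest) at 5 h and 326, 374 and 404 TPM at 10 h, so the groups overlapped. In bromobenzene kidney they were 264, 301 and 330 TPM and then 318, 357 and 394 TPM, which overlapped as well. Its fitted change after bromobenzene was 0.26 in kidney (SE 0.06, edgeR adjusted p = 0.00875) and 0.42 in liver (SE 0.10, edgeR adjusted p = 0.00499), where its level was 14.5 times lower.

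The member with the highest liver level was not called after bromobenzene in either organ. In vehicle liver its lowest, median and highest levels were 75.7, 137 and 180 TPM at 5 h and 195, 255 and 327 TPM at 10 h, without overlap. In bromobenzene liver they were 110, 153 and 300 TPM at 5 h and 186, 227 and 258 TPM at 10 h, where the highest 5 h library exceeded every 10 h library. Its vehicle changes were 0.96 in liver and 0.85 in kidney. The fitted bromobenzene changes were 0.30 (SE 0.17, edgeR adjusted p = 0.30) in liver and 0.24 (SE 0.13, edgeR adjusted p = 0.38) in kidney.

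The time change of bromobenzene rats differed between the organs for 9 of the 63 members, 8 with the larger rise in liver and 1 with the larger rise in kidney. Among the 14110 transcripts tested for this difference 3.53% were called, 1.86% with the larger change in liver and 1.67% with the larger change in kidney. For the 8 members the liver change ran from 0.53 to 1.47 and the kidney change from -0.05 to 0.64, and 5 of the 8 were called in kidney too. At least 4000 bases long were 6 of the 8. Of the 134 transcripts chosen without bromobenzene libraries 131 were tested for this difference, and 24 were called, 1 of them with the larger rise in kidney. The median difference, kidney minus liver, was -0.21 over the 63 members and 0.00 over all tested, and 53 members had the larger change in liver. Scaling by library totals alone moved the median over all tested to -0.13 and gave 18 calls, 17 of them larger in liver. DESeq2 gave 14 calls and a fit of all 64 libraries 15, in each case with 1 larger in kidney. Calls over all 14110 transcripts were 262 larger in liver and 236 larger in kidney in the main fit. They were 768 and 126 under scaling by totals, 398 and 378 in DESeq2, and 467 and 395 with all 64 libraries.

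The member with the larger rise in kidney had low levels in liver. In bromobenzene liver its lowest, median and highest levels were 1.73, 2.56 and 3.37 TPM at 5 h and 1.91, 2.31 and 2.73 TPM at 10 h, which overlapped. In bromobenzene kidney they were 6.25, 6.76 and 7.94 TPM at 5 h and 8.12, 8.67 and 10.2 TPM at 10 h, without overlap. The fitted changes were -0.20 in liver (SE 0.11, edgeR adjusted p = 0.30) and 0.36 in kidney (SE 0.07, edgeR adjusted p = 0.00105), and they differed by 0.57 (SE 0.12, edgeR adjusted p = 0.00568).

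The widest fitted difference of any member, -1.08 (SE 0.33), was not called, with an edgeR adjusted p of 0.062. That member is 918 bases long. Its bromobenzene kidney levels were scattered at 5 h, with lowest, median and highest values of 27.8, 53.1 and 87.3 TPM, against 39.8, 52.2 and 53.7 TPM at 10 h. In bromobenzene liver it went from 2.39, 4.31 and 11.1 TPM to 6.56, 10.5 and 13.6 TPM, with overlapping groups.

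Bromobenzene against vehicle in kidney at 5 h was the one treatment contrast that the rule did not use, although its vehicle libraries did enter the time criteria. Those criteria favour a low vehicle level at 5 h, and with it a positive difference in this contrast. None of the 63 members was called higher or lower there in edgeR, where 0.375% of the 20004 transcripts tested were called in either direction, 0.235% higher and 0.14% lower. The fitted log2 difference had a median of 0.02 and ran from -0.30 to 0.52, with 35 members above 0. An unadjusted p under 0.05 in edgeR was found for 19 members and for 2806 of the 20004 transcripts tested. DESeq2 called 4 members, all higher. Without the vehicle replicate 4 and bromobenzene replicate 8 named above, edgeR called 5 members, 3 higher and 2 lower. Without bromobenzene replicate 8 alone it called 7 members, 5 higher and 2 lower. Without vehicle replicate 8 it called 3 and without bromobenzene replicate 2 it called 1, all higher. The share of all transcripts called in these alternative fits is not given here, so their counts are not read as a response of the members.

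In the treatment contrasts that the rule did use, calls among the members are bounded by it and are given with nothing read from them. In liver at 5 h 3 members were called higher and none lower, where 2.78% of transcripts were called, 1.53% higher and 1.25% lower. In liver at 10 h 8 were called lower and none higher, where 11.2% were called, 6.18% higher and 5.04% lower. In kidney at 10 h none was called, where 0.625% were called, 0.305% higher and 0.32% lower. There an unadjusted p under 0.05 in edgeR was found for 12 members and for 2025 of the 20004 transcripts tested.

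By their median, members were longer than the transcripts of sufficient level. Their median length was 3393 bases, against 1984 over the 10847 meeting the level criteria and 2376 for the 71 left out. At 4000 bases or more lay 24 of the 63 members, or 38.1%, against 14.3% of the 10847 and 18.3% of the left-out. Members made up 0.167% of the transcripts under 1000 bases and 1.55% of those of at least 4000 bases. Length was not part of the rule.

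The time change itself moved with length over all 10847 transcripts, in a direction that depended on organ and treatment. From the shortest class to the longest the median 10 h minus 5 h change rose from 0.01 to 0.14 in vehicle kidney and fell from 0.04 to -0.06 in vehicle liver. In bromobenzene rats it rose from 0.04 to 0.17 in liver and from -0.02 to 0.04 in kidney. Among members of at least 4000 bases 20 of 24 were called in bromobenzene liver and 17 in kidney. Among those from 2000 to 4000 bases 14 of 22 were called in liver and 13 in kidney, and among those under 2000 bases 5 of 17 and 4. The share of all transcripts called in each length class is not given here, so these counts are not read as a trait of the members.

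With the trend over length taken out of the log2 values the rule gave 26 members, of which 22 were among the 63. With the trend taken out of the bromobenzene fits, a choice made after seeing the data, 41 of the 63 members were called higher in liver and 31 in kidney. Over all transcripts tested in those fits, 1054 of 17535 were called higher in liver and 290 of 20004 in kidney. The part of length in which transcripts met the rule was not tested beyond these values.

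**Figure D4:**
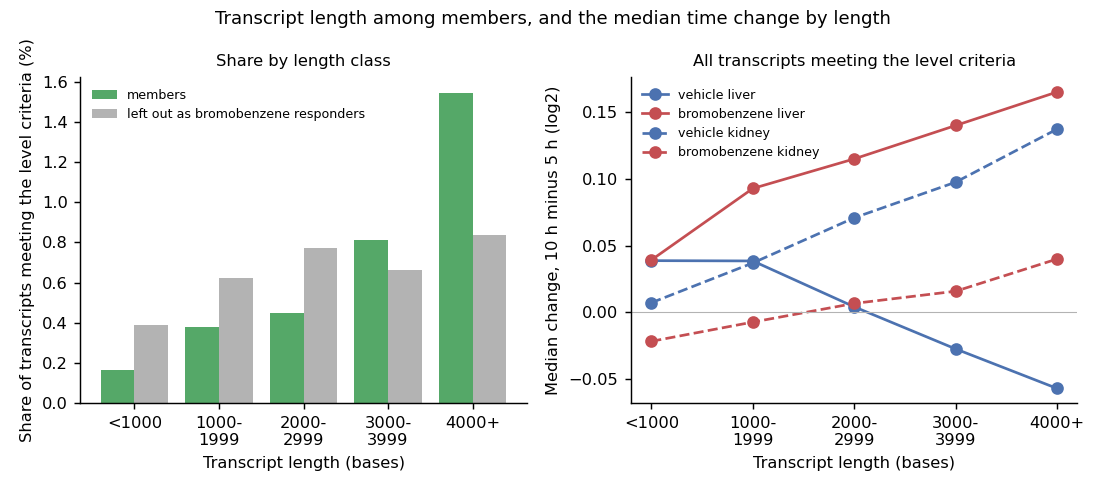
Left, the share of transcripts meeting the level criteria that were members (green) or left out as bromobenzene responders (grey), in percent, by transcript length. Right, the median change from 5 h to 10 h in log2(TPM + 0.5) of all transcripts meeting the level criteria, by length, in the 4 pairs of groups. Members reach 1.55% in the longest class against 0.167% in the shortest, and the medians of vehicle liver and vehicle kidney go in opposite directions with length.

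Each library was given the mean log2(TPM + 0.5) of the 63 members. In liver this ran from 3.004 to 3.24 at 5 h and from 3.65 to 3.999 at 10 h in vehicle rats, where the rule fixed the gap. In bromobenzene liver it ran from 2.69 to 3.30 at 5 h and from 3.42 to 3.88 at 10 h, so no 5 h library reached any 10 h library. In kidney the vehicle ranges were 3.997 to 4.34 and 4.40 to 4.67, and the bromobenzene ranges 4.09 to 4.33 and 4.42 to 4.60, again without overlap. The leave-out kept the members' bromobenzene means near the vehicle means in liver at both times and in kidney at 10 h. The bromobenzene gap is therefore bounded by the rule and carries no test.

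Counted by member, and within the bounds set by the leave-out, bromobenzene libraries split in the same way by time. Of the 63 members, the number above the midpoint of the member's vehicle 5 h and 10 h means was 3 to 19 in bromobenzene liver at 5 h, with a median of 12, and 27 to 58 at 10 h, with a median of 50. In bromobenzene kidney it was 6 to 25 with a median of 17 at 5 h, and 36 to 58 with a median of 50 at 10 h. The libraries with the lowest means in bromobenzene liver, replicate 4 at 5 h (2.69) and replicate 3 at 10 h (3.42), were those with the fewest transcripts detected. The same held in vehicle liver for replicate 4 at 5 h and replicate 4 at 10 h. In kidney at 5 h it held for vehicle replicate 2 and bromobenzene replicate 8. In kidney at 10 h the lowest mean and the fewest detected fell in different libraries. The part of detection in the members' levels was not tested. Without bromobenzene liver replicate 4 at 5 h and replicate 3 at 10 h, 40 members were called higher in liver. Of these, 37 were among the 39. Without kidney vehicle replicate 4 and bromobenzene replicate 8 at 5 h, 33 were called higher in kidney, all among the 34. Over all transcripts tested in those fits, 1027 of 17669 were called higher in liver and 308 of 20099 in kidney.

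**Figure D5:**
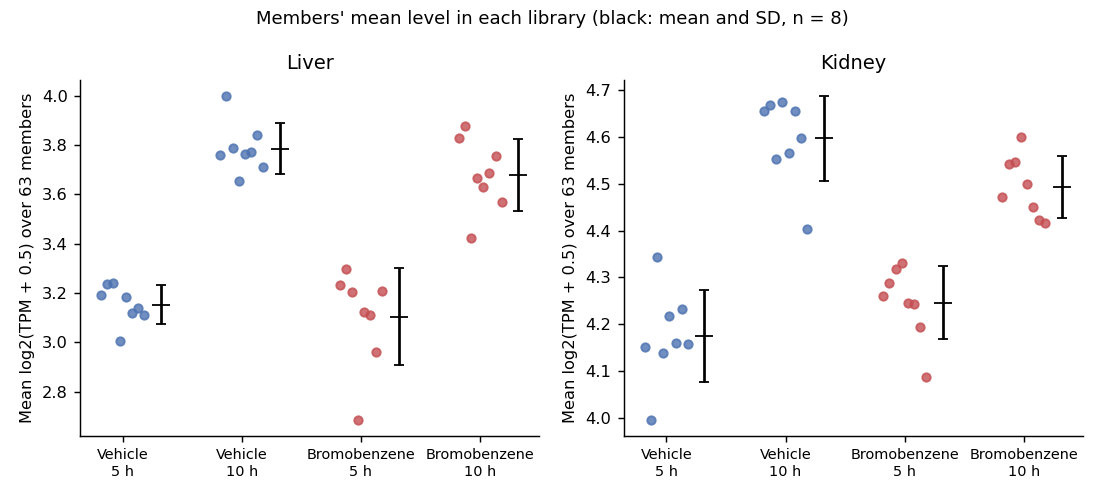
Mean log2(TPM + 0.5) of the 63 members in each library, by group, in liver and kidney, with the mean and standard deviation of 8 libraries in black. The axes do not start at 0. In bromobenzene rats the 5 h and 10 h ranges do not overlap in either organ (2.69 to 3.30 and 3.42 to 3.88 in liver, 4.09 to 4.33 and 4.42 to 4.60 in kidney). Their libraries did not set the time criteria but did set the leave-out. That bounds the members' distance from vehicle, so this gap carries no test.

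Library numbers in the titles fell into a first run (numbers 1 to 18 of each organ) and a second run (19 to 32), which the labels do not call batches. Vehicle had 5 libraries at 5 h and 6 at 10 h in the first run and 3 and 2 in the second. Bromobenzene had 2 and 5 in the first and 6 and 3 in the second. Within each run all 63 members were higher at 10 h in vehicle liver and in vehicle kidney, with medians of 0.51 and 0.58 in liver and of 0.39 and 0.28 in kidney. In bromobenzene rats 60 and 62 members were higher at 10 h in liver, with medians of 0.40 and 0.58. In kidney 56 and 54 were, with medians of 0.26 and 0.19. With the run as a covariate 38 members were called higher in bromobenzene liver, 32 in kidney and 24 in both. Over all transcripts tested in those fits, 828 of 17535 were called higher in liver and 268 of 20004 in kidney.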

How the data were processed

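Stranded libraries of polyadenylated RNA were sequenced from both ends, per the labels' protocols. Reads were quantified with kallisto 0.42.4 against Rnor_6.0, per the submitters' processing notes. The annotation release is not given in the sources used here. The authors deposited estimated counts per transcript, which divide shared reads among isoforms and paralogs, so levels of near-identical transcripts are uncertain. The authors deposited TPM beside them, corrected for effective length and scaled to a fixed sum.

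The members and lists were chosen with earlier results of these data known. The rule was applied to TPM. For tests the estimated counts were rounded, filtered with filterByExpr (minimum count 10, total 15) and given TMM scaling. The test was edgeR 4.0.16's robust quasi-likelihood test (R 4.3.3) on 32 libraries per organ. The organ difference used the 32 bromobenzene libraries and transcripts with a mean CPM (counts per mega-count, computed here) of at least 1 in each organ. P-values were adjusted by Benjamini-Hochberg over all transcripts tested, and calls are at 0.05. The scripts were tested on simulated data. Named IDs are the 2 members with the largest value of the smaller bromobenzene change among those called in both organs. The gene lists and marker lists could not be used without symbols. All 224 pairs of libraries within a group differed by more than counting error, with a chi-square of at least 9.82 per degree of freedom. Alternatives were other scalings, DESeq2 1.42.0, limma 3.58.1 on log2(TPM + 0.5) and log2(TPM + 1), filters, covariates and left-out libraries. Reads carry no molecular identifiers that the labels name.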

Additional observations from a re-analysis of the deposited data

Results flagged for a closer look

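Libraries far from the rest of their group were looked for in 4 quantities over the 8 groups, 32 combinations on the same 64 libraries. The search found 4 values, from 2 libraries and overlapping quantities. They are not independent cases, and chance alone marks about 1 in 20 combinations. ENSRNOT00000081845.1 was at 33.3 TPM in kidney vehicle replicate 3 at 5 h, above the next library at 24.3 TPM. In the same library 25 members were above their midpoint, where the next library had 11. In kidney vehicle replicate 8 at 10 h the mean log2(TPM + 0.5) of the 63 members was 4.40, below the next library at 4.55, and 36 members were above their midpoint, where the next library had 55.

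Between the organs, the bromobenzene time change differed for 9 members in edgeR's test of the difference. ENSRNOT00000020476.7 was one of them, with a kidney minus liver difference of -0.84 on the log2 scale.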

How the results depend on the processing

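The number of members was 63 by the rule as written, 134 with no leave-out, 30 on log2(CPM + 0.5) after TMM scaling and 26 with the length trend removed, and 55 to 73 when each of the 64 libraries was left out in turn. Calls of a rise after bromobenzene kept within 1.5 times their count under other scalings, DESeq2, limma on TPM, no filter, the run as a covariate, the length trend removed and the libraries that stood apart left out. The exceptions were the first run alone (4 in liver, 12 in kidney, 3 in both), the second run alone (22, 2 and 1), which have few libraries, and all 134 transcripts (74, 59 and 47). Over all transcripts tested, the first run alone had 68 of 18363 higher in liver and 81 of 20894 in kidney. The second run alone had 229 of 18491 and 6 of 20765. The fit of the compared groups alone gave 16 in both organs. Leaving out 1 library gave 37 to 42 in liver, 29 to 33 in kidney and 23 to 27 in both, with no share over all transcripts given here. Scaling by totals turned the liver split of all transcripts from 969 higher and 860 lower to 1835 and 488, with a median of 0.09, and the members called to 48. Members called in kidney at 5 h were 0 by edgeR, 4 by DESeq2, 5 without the 2 kidney libraries that stood apart, and 0 to 7 leaving out 1 library. These alternative counts have no share over all transcripts beside them. Members that differed between organs were 18 under scaling by totals, 14 by DESeq2, 15 with all 64 libraries, and 7 to 13 leaving out 1 library; the cause was not tested. ENSRNOT00000081845.1 in liver missed the threshold in the first run alone (0.71, edgeR adjusted p = 0.087), and ENSRNOT00000020476.7 in kidney in the second (0.59, edgeR adjusted p = 0.077). The labels pair no liver with a kidney library, but library n in liver and n + 32 in kidney share time and treatment. Of the 32 such pairs 25 had deviations that correlated above 0.1 over 10847 transcripts, and 24 liver libraries correlated best with their own number, a hint from the data and not the design. With this number as a replicate block, chosen after seeing the data, 7 members differed between organs, 6 with the larger rise in liver, all among the 9. Over all 14110 transcripts in that fit, 232 were called with the larger change in liver and 215 with the larger change in kidney.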
